A study of Mus musculus with 32 samples.

Results

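Prrg3, Fhl1, Syn2 and Kcnj15 are 4 of the 47643 mouse genes counted in epididymal white adipose tissue (eWAT), the fat pad beside the testis, of mice given the stress hormone corticosterone (cort). They were chosen by their cort effects in eWAT, since their RNA was higher with cort on both diets in earlier results of these data, and those effects are described here with no test. The effects of diet, the response in liver and the spread between libraries of 1 group were not the basis of that choice and are tested. In eWAT the effects of diet and the difference of the cort effects between the diets use the same libraries as the choice. The comparison of eWAT with liver also uses the Veh libraries of eWAT. The tests of all of these are therefore not independent of the choice. The libraries came from male C57BL/6 mice (C57BL/6J in the study's methods), 10 weeks old, that received cort or its vehicle (Veh) in the drinking water for 7 days. They ate a normal-protein diet (NPD, 20% of energy from protein) or a high-protein diet (HPD, 60% of energy from protein) of the same energy content, in which the added protein took the place of carbohydrate. Each of the 4 groups, named Veh NPD, Cort NPD, Veh HPD and Cort HPD, has 4 eWAT and 4 liver libraries, numbered as replicates by the labels. No mutation or transgene was used, every mouse was male, and each sample was a piece of whole tissue, in which fewer cells of a type and less RNA per cell cannot be told apart.

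Corticosterone is the main glucocorticoid of the mouse. It enters cells, binds the glucocorticoid receptor (gene Nr3c1), and the receptor then moves to the nucleus, binds DNA and raises or lowers the transcription of target genes. In fat, glucocorticoids are known to act on fat storage, lipid breakdown, inflammation and the formation of new adipocytes. The members belong to different gene families. Prrg3 encodes a small transmembrane protein with an extracellular Gla domain, in which glutamate residues are carboxylated by a vitamin K-dependent enzyme. Fhl1 encodes a LIM-domain protein that is abundant in skeletal and heart muscle and binds to other proteins of the sarcomere and the cytoskeleton. Syn2 encodes synapsin II, a phosphoprotein on the surface of synaptic vesicles in nerve endings. Kcnj15 encodes Kir4.2, an inwardly rectifying potassium channel known from the kidney and other epithelia.

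All members are on the plus strand of GRCm38 in the GENCODE annotation: Prrg3 (ENSMUSG00000033361) on chromosome X from 71962624 to 71972722, Fhl1 (ENSMUSG00000023092) on chromosome X from 56731787 to 56793346, Syn2 (ENSMUSG00000009394) on chromosome 6 from 115134902 to 115282006, and Kcnj15 (ENSMUSG00000062609) on chromosome 16 from 95257558 to 95300260. The 250 bases before 1 annotated RefSeq start of each gene (GRCm38.p6) are shown because they differ in base composition. Prrg3, Fhl1 and Syn2 have another annotated start, and which start is used in eWAT was not tested. Capitals mark CpG dinucleotides.

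Prrg3, chrX:71962375-71962624, + strand: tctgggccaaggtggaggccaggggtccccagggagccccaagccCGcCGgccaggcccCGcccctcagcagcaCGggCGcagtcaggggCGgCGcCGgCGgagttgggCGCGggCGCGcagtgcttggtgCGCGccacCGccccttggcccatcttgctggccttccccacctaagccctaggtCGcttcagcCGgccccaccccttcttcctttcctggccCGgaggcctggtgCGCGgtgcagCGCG

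Syn2, chr6:115134652-115134901, + strand: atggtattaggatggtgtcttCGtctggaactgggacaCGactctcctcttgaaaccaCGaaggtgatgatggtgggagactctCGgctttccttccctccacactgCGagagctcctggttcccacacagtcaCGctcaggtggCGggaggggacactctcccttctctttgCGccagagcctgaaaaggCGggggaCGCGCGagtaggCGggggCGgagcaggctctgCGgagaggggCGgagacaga

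Fhl1, chrX:56779433-56779682, + strand: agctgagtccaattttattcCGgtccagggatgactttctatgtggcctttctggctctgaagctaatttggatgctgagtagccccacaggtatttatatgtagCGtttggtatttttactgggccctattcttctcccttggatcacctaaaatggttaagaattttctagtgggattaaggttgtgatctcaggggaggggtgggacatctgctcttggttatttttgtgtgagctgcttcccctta

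Kcnj15, chr16:95257308-95257557, + strand: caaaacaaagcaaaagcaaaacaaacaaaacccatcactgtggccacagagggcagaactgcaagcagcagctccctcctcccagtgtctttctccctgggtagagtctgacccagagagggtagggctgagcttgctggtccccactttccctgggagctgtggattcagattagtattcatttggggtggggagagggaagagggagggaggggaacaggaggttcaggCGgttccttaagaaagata

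The Prrg3 stretch was the richest in G and C of those shown, at 75.2%, with 23 CpG dinucleotides, and the Syn2 stretch had 61.2% and 16. The stretches of Fhl1 and Kcnj15 had 44.4% and 53.2%, with 2 and 1 CpG, where all RefSeq promoters had a median of 52.4% and 6. Before the other starts, not shown, the values were 73.6% and 18 for Prrg3, 50.4% and 5 for Syn2, and 49.2% and 3 for Fhl1. The glucocorticoid receptor half-site AGAACA, searched on both strands (the other strand reads TGTTCT) from 250 bases before to 50 after the start, was in none of the 7 promoters annotated for the members and in 19% of all 32851. The palindrome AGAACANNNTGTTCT, which contains the half-site, was in 0.00913% of all promoters. These searches describe the letters of those windows only.

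The eWAT libraries held 9794683 to 18057936 counted reads and the liver libraries 8933307 to 17447524, from a kit that reads the 3′ ends of messenger RNA. Levels are given in CPM, counts scaled to the same total over the reads of genes that passed the filter on low counts, with TMM factors applied, and each library counted as 1 sample. The summed level of 6 adipocyte markers was 26806 to 34874 CPM in eWAT and 40.6 to 96.4 CPM in liver, and that of 6 hepatocyte markers was 33.6 to 89.0 CPM in eWAT and at least 38304 CPM in every liver library. Cort HPD replicate 4 of eWAT stood apart with 4456 CPM of 7 testis and epididymis markers, and Cort NPD replicate 3 of liver with 484 CPM of 7 skeletal muscle markers. Cort HPD replicate 1 of liver had the lowest TMM factor, 0.754, and 244338 CPM of hepatocyte markers, where the rest of its group had 134288 to 165638 CPM. Replicate 4 of Veh HPD in liver was left out of the fits, a choice made with earlier results of these data known, so that liver had 15 libraries and that group 3. The library left out had a TMM factor of 1.45 and 38304 CPM of hepatocyte markers.

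Prrg3 had the largest fold difference with cort among the members on both diets. In Veh NPD its level was 61.3, 77.3, 69.0 and 86.8 CPM in replicates 1 to 4, and in Cort NPD it was 369, 494, 439 and 443 CPM. In Veh HPD the level was 57.9, 70.8, 74.5 and 54.1 CPM, and in Cort HPD it was 426, 356, 540 and 404 CPM. Every Cort library lay above every Veh library, and the lowest Cort level was 4.25 times the highest Veh level on the NPD and 4.78 times on the HPD. The group means were 73.6 ± 11.0 CPM (SD, n = 4) in Veh NPD, 436 ± 51.1 in Cort NPD, 64.3 ± 9.84 in Veh HPD and 431 ± 78.0 in Cort HPD. As log2 fold changes these differences were 2.57 (SE 0.15) on the NPD and 2.75 (SE 0.15) on the HPD. Over all 15187 genes tested in eWAT, 4.05% were called higher with cort on the NPD, against 3.46% on the HPD (edgeR's quasi-likelihood test, adjusted p under 0.05), and 3.93% and 2.63% were called lower. All 4 members are among the genes called higher, and their Cort and Veh libraries do not overlap, which only restates how they were selected. The share of all genes whose groups did not overlap, with cort or between the diets, was not counted.

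**Figure D1:**
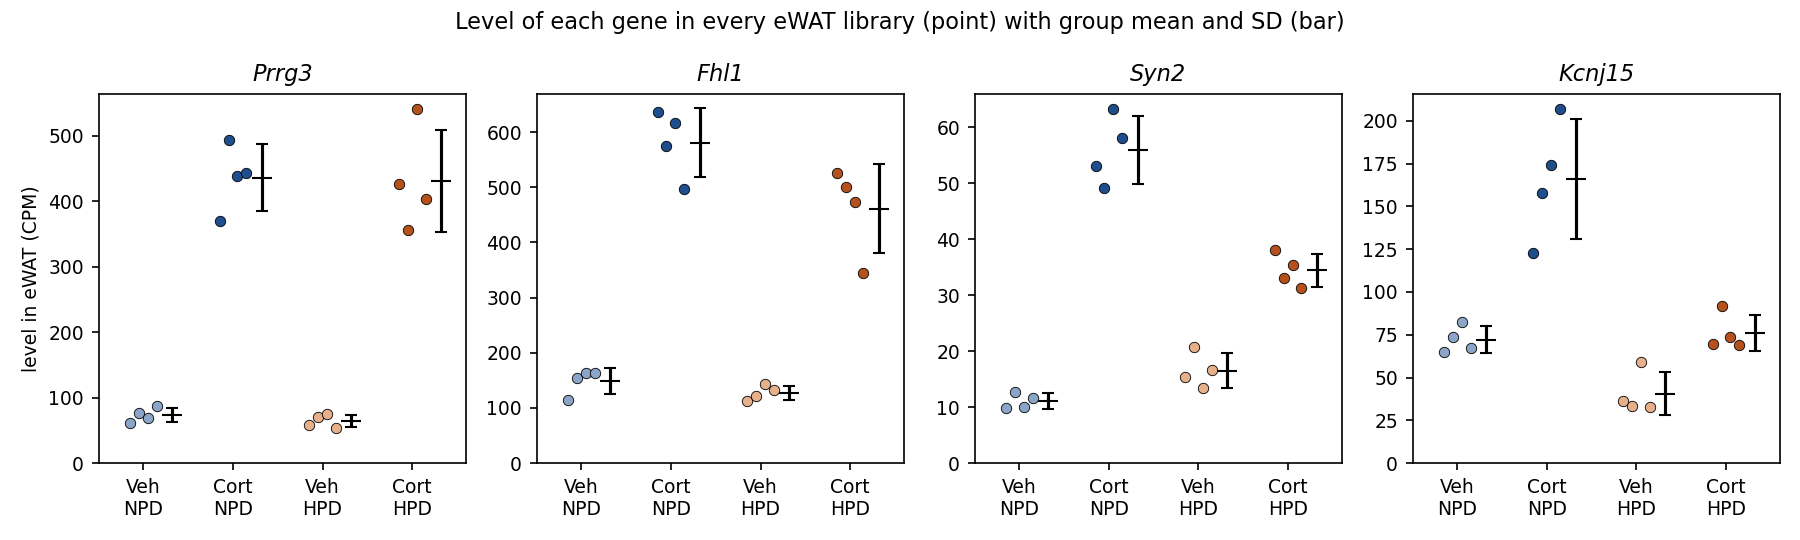
Level of each gene in CPM (vertical axes, from 0) in every eWAT library, by group. Each point is 1 library, the short line is the group mean and the bar its SD (n = 4). Cort and Veh libraries do not overlap for any of the genes on either diet, which restates how the genes were selected. Prrg3 reaches similar levels in both Cort groups, and Syn2 and Kcnj15 are lower in Cort HPD than in Cort NPD.

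Genes of the Prrg3 family, of vitamin K-dependent carboxylation and of other Gla proteins were looked at from lists. Whether any of them acts with Prrg3 was not tested. Of the other 3 PRRG genes, 2 were tested and neither was called on either diet. On the NPD the log2 change was −0.02 (95% interval −0.91 to 0.87) for Prrg1 and 0.22 (95% interval −0.20 to 0.64) for Prrg2. Of the 4 genes of the vitamin K cycle, Vkorc1l1, a vitamin K epoxide reductase, rose on the NPD by 0.65 (SE 0.17, adjusted p = 0.013) and had a log2 change of 0.05 (SE 0.17, adjusted p = 0.91) on the HPD, and the others, among them the carboxylase gene Ggcx, were not called. Of 13 secreted Gla proteins, 5 were tested. Pros1, which encodes the anticoagulant protein S, fell by 0.65 (SE 0.16, adjusted p = 0.0088) on the NPD and by 0.59 (SE 0.16, adjusted p = 0.022) on the HPD. Gas6, a ligand of TAM receptor kinases, fell by 0.54 (SE 0.14, adjusted p = 0.015) on the NPD, and its change of −0.44 on the HPD had an adjusted p of 0.069. The median log2 change of the secreted Gla genes tested was −0.65 on the NPD and −0.44 on the HPD, beside −0.02 and −0.00 over all genes tested. The next gene on the strand of Prrg3, Fate1, starts 264 bases beyond it and had 0 to 12 reads in 15 of the eWAT libraries and 54 in Cort HPD replicate 4.

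Fhl1 was the member with the highest counts and had a similar difference on both diets. Its level was 114, 154, 163 and 164 CPM in Veh NPD and 637, 575, 616 and 496 CPM in Cort NPD. On the HPD it was 112, 122, 143 and 133 CPM with Veh and 525, 501, 473 and 344 CPM with cort. The groups did not overlap on either diet, and the lowest Cort library was Cort HPD replicate 4, the library with testis and epididymis markers. The means were 149 ± 23.5 CPM (SD, n = 4) in Veh NPD, 581 ± 62.3 in Cort NPD, 127 ± 13.4 in Veh HPD and 461 ± 80.5 in Cort HPD, and the log2 differences were 1.96 (SE 0.14) on the NPD and 1.85 (SE 0.14) on the HPD. The second of these was 1.97 when Cort HPD replicate 4 was left out.

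Markers of muscle in eWAT are given because Fhl1 is abundant in muscle, and the part of muscle cells in its levels was not tested. The sum of 7 skeletal muscle markers was 64.3 to 200 CPM in Veh NPD and 11.3 to 25.6 CPM in Cort NPD. On the HPD it was 22.9 to 92.8 CPM with Veh and 12.6 to 21.9 CPM with cort. Within each diet these ranges did not overlap. Of the 5 markers tested 1 was called lower on the NPD, Acta1 at −2.64 (edgeR, adjusted p = 0.014), and none on the HPD. The sum of 6 smooth muscle markers was 288 to 374 CPM in Veh NPD and 145 to 194 CPM in Cort NPD, with no overlap. On the HPD the ranges overlapped, at 110 to 343 CPM with Veh and 136 to 269 CPM with cort. Of these 6 markers 1 was called lower on the NPD, Acta2 at −1.31 (edgeR, adjusted p = 0.040), and none on the HPD. Of the other 4 FHL genes, Fhl2 and Fhl3 were tested and neither was called, with log2 changes of 0.24 (SE 0.69) and −0.30 (SE 0.35) on the NPD and −0.15 (SE 0.68) and −0.80 (SE 0.35) on the HPD. Of 18 other LIM-domain genes of the cytoskeleton, 17 were tested. On the NPD 1 was called, Zyx, which encodes the focal adhesion protein zyxin and fell by 0.41 (SE 0.13, adjusted p = 0.038). On the HPD 1 was called, Pdlim2, which rose by 0.62 (SE 0.18, adjusted p = 0.038). Their median log2 change was −0.21 on the NPD and 0.06 on the HPD.

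Syn2 had a large difference on the NPD and a smaller one on the HPD. Its level was 9.88, 12.7, 9.95 and 11.6 CPM in Veh NPD and 53.1, 49.2, 63.3 and 58.0 CPM in Cort NPD. On the HPD it was 15.3, 20.7, 13.4 and 16.7 CPM with Veh and 38.0, 33.0, 35.4 and 31.2 CPM with cort. None of the 4 groups overlapped with another, in the order Veh NPD, Veh HPD, Cort HPD and Cort NPD. The means were 11.1 ± 1.39 CPM (SD, n = 4) in Veh NPD, 16.5 ± 3.11 in Veh HPD, 34.4 ± 2.95 in Cort HPD and 55.9 ± 6.08 in Cort NPD. The log2 differences with cort were 2.34 (SE 0.16) on the NPD and 1.06 (SE 0.16) on the HPD.

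Of the other genes of nerve endings examined, 1 was called with cort. The sum of 6 neuron markers was 3.40 to 10.2 CPM with Veh and 4.03 to 14.8 CPM with cort, and neither of the 2 markers tested was called with cort on either diet. The only other synapsin gene tested, Syn1, had log2 changes of −1.15 (SE 1.32) on the NPD and −0.47 (SE 1.32) on the HPD and was not called. Of 14 genes of presynaptic vesicles, 9 were tested and 1 was called, Rab3a, a small GTPase of vesicle release, which rose on the NPD by 0.76 (SE 0.22, adjusted p = 0.032) and on the HPD had a log2 change of 0.44 (SE 0.22, adjusted p = 0.28).

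Syn2 shares its place in the genome with Timp4, an inhibitor of matrix metalloproteinases that lies on the other strand inside Syn2, on chromosome 6 from 115241892 to 115252205. Their annotated exons share 90 bases, and the nearest end of Timp4 is 29801 bases from the 3′ end of Syn2. Of the 7 annotated transcripts of Syn2, 6 share exonic bases with Timp4 and 1 ends inside or close to it. Whether the counting used the strand is not given in the sources used here, so reads in the shared bases cannot be told apart. Timp4 was more abundant and was also called higher with cort, by 1.49 (SE 0.14, adjusted p = 7.8e-08) on the NPD and by 1.22 (SE 0.14, adjusted p = 2.4e-06) on the HPD. Its mean level was 371 ± 85.6 CPM (SD, n = 4) in Veh NPD, 1040 ± 88.1 in Cort NPD, 438 ± 73.7 in Veh HPD and 1021 ± 79.2 in Cort HPD. Unlike Syn2 it was at a similar level in both Cort groups, with a log2 difference of −0.03 between the diets. A gene on the same strand within Syn2, Gm17482, had no read in any library.

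Kcnj15 had the smallest difference with cort among the members and the clearest difference between the diets. Its level was 65.0, 73.6, 82.4 and 67.0 CPM in Veh NPD and 123, 158, 174 and 207 CPM in Cort NPD. On the HPD it was 36.4, 33.5, 59.2 and 32.8 CPM with Veh and 69.8, 91.6, 73.8 and 69.0 CPM with cort. Within each diet the groups did not overlap, but the Cort HPD levels overlapped those of Veh NPD. The means were 72.0 ± 7.87 CPM (SD, n = 4) in Veh NPD, 166 ± 34.9 in Cort NPD, 40.5 ± 12.6 in Veh HPD and 76.0 ± 10.6 in Cort HPD, and the log2 differences with cort were 1.20 (SE 0.17) on the NPD and 0.91 (SE 0.17) on the HPD. Of 14 other inward rectifier genes, 4 were tested (Kcnj2, Kcnj8, Kcnj14 and Kcnj16) and none was called with cort on either diet. The antisense gene Gm49643 shares 333 exonic bases with Kcnj15 and is not among the genes counted, so any reads of it there cannot be told apart from Kcnj15 if the counting did not use the strand.

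The place of the members among all genes describes the values that chose them and tests nothing. For the mean of the cort effects on the 2 diets, 8.13% of the genes tested were called higher, 1235 in number. Ranked by p among the 7315 genes with a higher estimate, Prrg3 was first, Fhl1 4th, Syn2 10th and Kcnj15 69th. Ranked by log2 fold change they were 70th, 174th, 228th and 569th. Among the 4616 of these genes with a mean of at least 10 CPM in the Cort libraries, they were 24th, 47th, 57th and 152nd by log2 fold change. The 10 genes with the smallest p were Prrg3, the haptoglobin gene Hp, the peroxiredoxin gene Prdx6, Fhl1, the lysyl oxidase gene Lox, Tmem176a, Tmem176b, the serpin gene Serpina3n, Ndrg2 and Syn2.

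**Figure D2:**
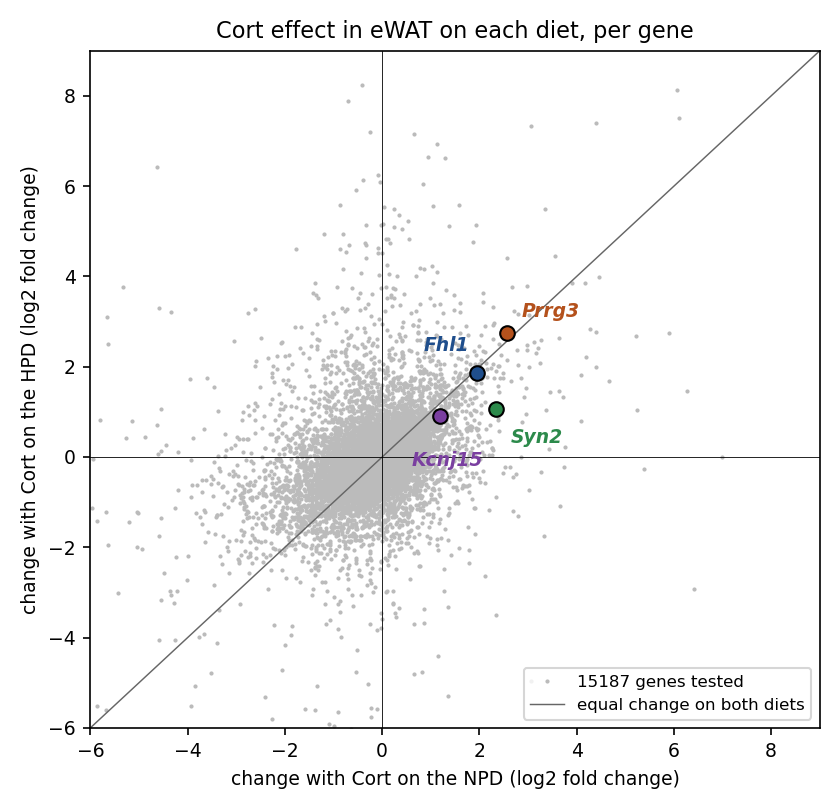
Log2 fold change with cort in eWAT on the NPD (horizontal) and on the HPD (vertical). Each grey point is 1 of the 15187 genes tested, 53 of which lie outside the axes, and the line marks equal changes on both diets. Prrg3 and Fhl1 lie near the line, and Syn2 lies below it, at 2.34 on the NPD and 1.06 on the HPD.

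The question that the 2 by 2 design asks is whether the diet altered the response to cort. In eWAT 2 genes, 0.0132% of those tested, were called for the difference of the cort effects between the diets, and Syn2 was 1 of them. Its cort effect was lower on the HPD by 1.28 on the log2 scale (95% interval −1.74 to −0.82, SE 0.22, adjusted p = 0.033). This difference is made of the cort effects by which the members were chosen, so its p-value is not independent of that choice. The size kept between −1.37 and −1.15 when each eWAT library was left out in turn, and the adjusted p ranged from 0.014 to 0.18. The call was kept without Veh NPD replicate 2, Veh HPD replicate 3, Cort NPD replicate 2 or Cort HPD replicate 1, and was lost in the 12 fits that left out any other library, with differences of −1.31 to −1.15 and adjusted p of 0.051 to 0.18. With limma voom it was −1.28 (SE 0.24, adjusted p = 0.12), and with library totals and no TMM factors −1.23 (SE 0.23, adjusted p = 0.091). For Prrg3 the difference was 0.18 (95% interval −0.23 to 0.59), for Fhl1 it was −0.11 (95% interval −0.52 to 0.29) and for Kcnj15 it was −0.29 (95% interval −0.79 to 0.21), each with an adjusted p of 0.99.

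Without cort, 0.0593% of genes were called between the diets and no member was. Kcnj15 came nearest: its log2 difference, HPD against NPD in Veh mice, was −0.83 (95% interval −1.19 to −0.47, adjusted p = 0.058). Every Veh HPD library was below every Veh NPD library, and the highest of them, replicate 3 at 59.2 CPM, stood apart from the other Veh HPD libraries, which were at 32.8 to 36.4 CPM. Without that library the difference was −1.07 and its adjusted p was 9.0e-04, and without Cort NPD replicate 1 or Cort HPD replicate 4 it was −0.83 with an adjusted p of 0.048. DESeq2 gave −0.84 (SE 0.19, adjusted p = 0.0023). Syn2 was higher on the HPD by 0.58 (95% interval 0.25 to 0.91, adjusted p = 0.19), and all 4 Veh HPD libraries were above all 4 Veh NPD libraries. Fhl1 differed by −0.22 (95% interval −0.51 to 0.06) and Prrg3 by −0.19 (95% interval −0.49 to 0.10).

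With cort, 0.487% of genes were called between the diets, 0.283% as lower on the HPD. Of the members 2 of 4 were called, both lower on the HPD. Kcnj15 had a log2 difference of −1.12 (95% interval −1.48 to −0.77, adjusted p = 0.0020), all 4 Cort HPD libraries were below all 4 Cort NPD libraries, and the call held in all 16 fits that left out 1 library. Syn2 had a log2 difference of −0.70 (95% interval −1.02 to −0.38, adjusted p = 0.030), also with no overlap. The call was lost with library totals (−0.64, adjusted p = 0.066) and with the replicate number as a block (−0.70, adjusted p = 0.050). It was also lost without Cort NPD replicate 1, 3 or 4 or Cort HPD replicate 2, 3 or 4, with differences of −0.72 to −0.64 and adjusted p of 0.085 to 0.13. Fhl1 differed by −0.33 (95% interval −0.62 to −0.05, adjusted p = 0.40) and Prrg3 by −0.02 (95% interval −0.31 to 0.27, adjusted p = 0.99). The estimates of Kcnj15 had the same sign with and without cort, and those of Syn2 had opposite signs. Red blood cell markers moved with the Cort HPD group: their sum over 5 genes was 12684 to 25856 CPM in Cort HPD, 3619 to 6491 in Cort NPD and 3891 to 9273 in the Veh groups, and their part in these differences was not tested.

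**Figure D3:**
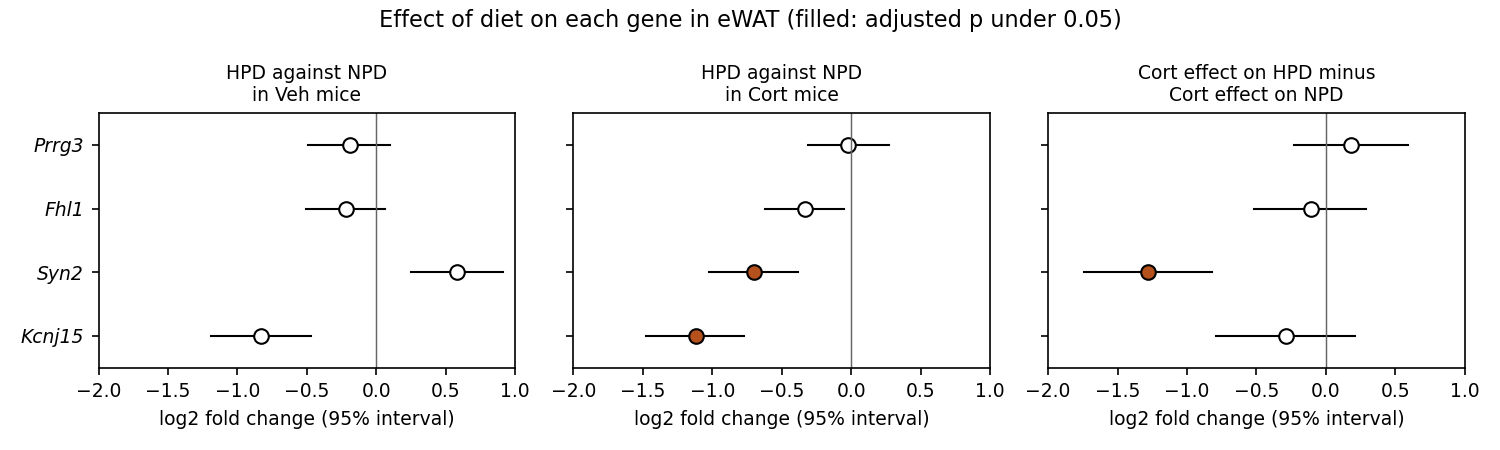
Log2 differences of each gene in eWAT with 95% intervals (lines): HPD against NPD in Veh mice, HPD against NPD in Cort mice, and the cort effect on the HPD minus that on the NPD. Filled points have an adjusted p under 0.05. Syn2 is filled for the difference between diets in Cort mice and for the difference of the cort effects, and Kcnj15 only for the former.

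In liver the members were at low levels or near 0, and 1 of the 4, Fhl1, passed the filter on low counts. In Veh mice Fhl1 was higher in eWAT than in liver in a fit of both tissues, by 4.96 on the log2 scale (SE 0.18, adjusted p = 9.6e-23), where 39.9% of the 16482 genes were called higher in eWAT. That fit took the libraries as independent, although the tissues may share mice, which the labels do not give. It also used the Veh libraries of eWAT by which Fhl1 was chosen, so its p-value is not independent of that choice. The other 3 members entered that fit through their eWAT reads, so their difference between the tissues is given as levels with no test. Prrg3 was at 54.1 to 86.8 CPM in the Veh libraries of eWAT and at 0 to 0.676 CPM in those of liver. Syn2 was at 9.88 to 20.7 CPM in eWAT and 0 to 0.173 CPM in liver, and Kcnj15 at 32.8 to 82.4 CPM in eWAT and 0 to 0.743 CPM in liver. The ranges of the tissues were far apart for each of them. CPM were scaled within each tissue, so they are not on a common scale between the tissues, whereas the fit scaled all libraries together. A count of 0 in a liver library allows up to 3 reads, or 0.153 to 0.317 CPM.

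Fhl1 rose with cort in liver on the NPD. The libraries held 18, 13, 20 and 36 reads in Veh NPD, or 1.42, 1.38, 1.73 and 3.04 CPM, and 48, 37, 64 and 62 reads in Cort NPD, or 3.69, 3.19, 4.85 and 3.77 CPM. The groups did not overlap, and the lowest Cort level was 1.05 times the highest Veh level. The log2 fold change was 1.02 (95% interval 0.35 to 1.70, SE 0.33, adjusted p = 0.041), where 12.6% of the 12391 genes tested were called and 6.84% were called higher. Replicate 3 of Cort NPD, with the highest Fhl1 level in liver, was also the library with 484 CPM of skeletal muscle markers, where the other liver libraries had 1.13 to 42.7 CPM. Without it the log2 fold change was 0.89 and the adjusted p was 0.13. The call was also lost without Veh NPD replicate 1, 2 or 3 or Cort NPD replicate 1 or 4, with log2 fold changes of 0.89 to 1.05 and adjusted p of 0.060 to 0.12. With all 16 liver libraries, and with the replicate number as a block, the log2 fold change was 1.03 and the adjusted p 0.057. Other markers moved with Fhl1 in liver. From the list of fat progenitor markers 4 were tested, and which liver cells carry them was not examined. On the NPD 2 were called higher, Pdgfra by 1.32 (adjusted p = 0.027) and Col1a1 by 1.79 (adjusted p = 0.020). Dpp4 and Dcn had 0.27 and 0.15 and were not called. On the HPD Pdgfra and Col1a1 had −0.36 and −0.52 and were not called. Of 4 adipocyte markers tested, 1 was called higher on the NPD, Cidec by 1.89 (adjusted p = 0.0047), with −0.11 on the HPD. Adipoq, Lipe and Fabp4 had −0.72, 0.20 and 0.78 on the NPD and were not called. The summed level of the 5 progenitor markers was 332 to 449 CPM in Veh NPD and 386 to 501 CPM in Cort NPD. The median log2 changes of the smooth muscle and mesothelial markers tested were 0.88 and 0.85 on the NPD and −0.33 and 0.03 on the HPD, with none called. The part of the cells that carry these markers in the Fhl1 values was not tested.

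On the HPD, Fhl1 in liver was at 2.51, 2.77 and 1.82 CPM with Veh and 4.24, 1.92, 2.75 and 1.71 CPM with cort, with overlapping groups. Its log2 fold change was 0.16 (95% interval −0.56 to 0.88, adjusted p = 0.82), where 9.89% of genes were called. Without Cort HPD replicate 1, the library at 4.24 CPM, the log2 fold change was −0.15. The difference of the cort effects between the diets was −0.87 (95% interval −1.85 to 0.12, adjusted p = 0.48), with 0.113% of genes called. The diet differences were 0.31 (95% interval −0.43 to 1.05, adjusted p = 0.84) in Veh mice, with 0.169% of genes called, and −0.56 (95% interval −1.21 to 0.09, adjusted p = 0.32) in Cort mice, with 5.88% called. In eWAT the log2 fold changes of the same gene were 1.96 on the NPD and 1.85 on the HPD.

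Syn2 was at 0, 0, 2 and 0 reads in liver of Veh NPD and at 11, 2, 14 and 11 reads in Cort NPD. That is 2 reads over 4 libraries against 38, a ratio of 15.9 after scaling by library size, with an exact 95% interval of 4.11 to 136 that covers counting error only. The ranges touched, since the highest Veh library and the lowest Cort library each had 2 reads. In a fit with no filter on low counts the log2 change was 3.72 (SE 1.14, adjusted p = 0.027). That fit was not repeated with a library left out. The highest count, 14 reads, was in Cort NPD replicate 3, the library with 484 CPM of skeletal muscle markers, and their part in the Syn2 counts was not tested. On the HPD there were 2, 0 and 1 reads with Veh and 2, 5, 4 and 0 with cort, and the same fit gave 1.46 (SE 1.20, adjusted p = 0.59). Timp4 reads in the same liver libraries were 1, 1, 0 and 0 in Veh NPD and 178, 6, 610 and 16 in Cort NPD, and whether reads in the bases that both genes share entered the Syn2 counts was not tested.

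Prrg3 and Kcnj15 had no higher estimate with cort in liver. Prrg3 had 8, 6, 1 and 8 reads in Veh NPD, 3, 0, 8 and 9 in Cort NPD, 0, 5 and 10 in Veh HPD, and 1, 1, 0 and 1 in Cort HPD. The groups overlapped on both diets, and in the fit without a filter the log2 changes were −0.50 (SE 0.88, adjusted p = 0.83) for the NPD and −2.54 (SE 1.12, adjusted p = 0.21) for the HPD. Kcnj15 had 0, 6, 1 and 1 reads in Veh NPD, 2, 0, 0 and 6 in Cort NPD, 8, 3 and 11 in Veh HPD, and 0, 1, 0 and 6 in Cort HPD. Its log2 changes were −0.43 (SE 1.15, adjusted p = 0.93) and −1.87 (SE 1.13, adjusted p = 0.42). The ratio of summed reads after scaling by library size, Cort over Veh, was 0.729 on the NPD for Prrg3 (exact 95% interval 0.38 to 1.39) and 0.16 on the HPD (0.0296 to 0.565). For Kcnj15 it was 0.838 (0.274 to 2.56) and 0.254 (0.0917 to 0.616). These intervals cover counting error only and leave out the spread between libraries, which the fit includes. The eWAT folds were 5.93 and 6.71 for Prrg3, above both intervals, and 2.30 and 1.88 for Kcnj15, of which the first lay inside its interval.

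**Figure D4:**
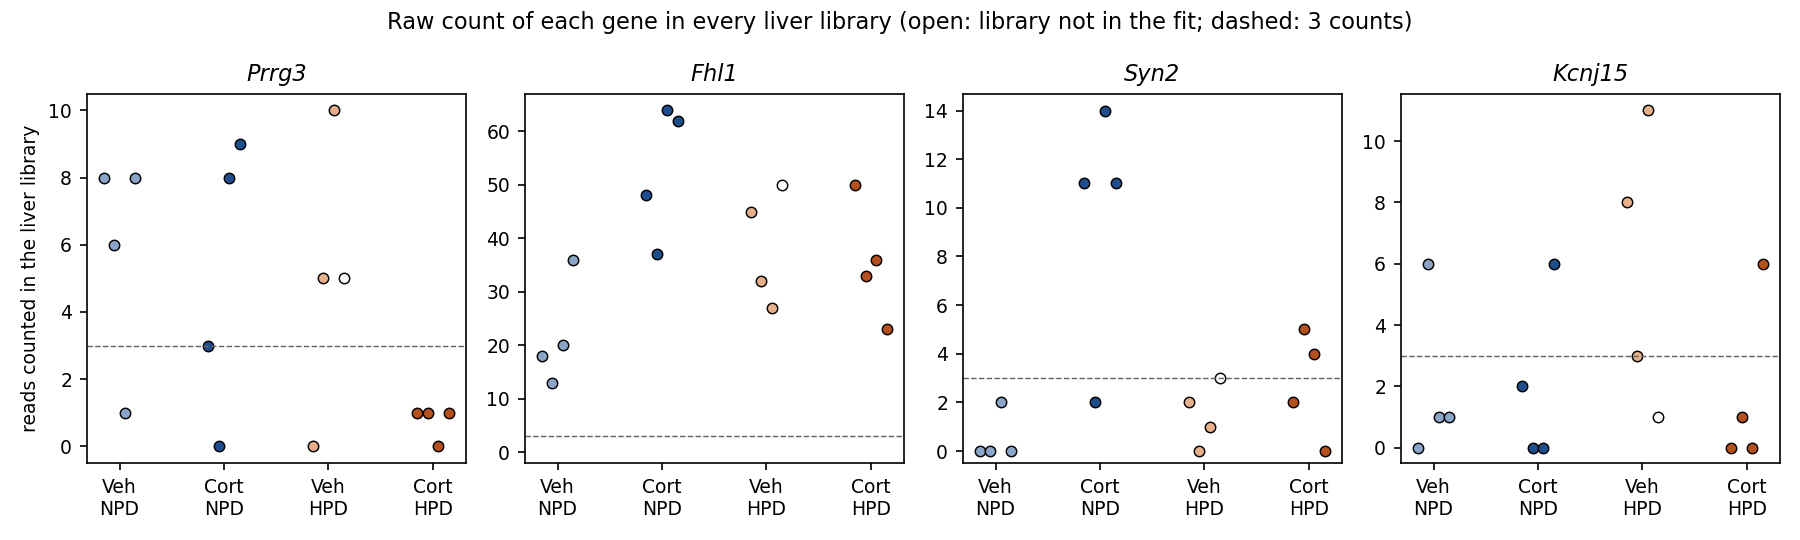
Raw reads of each gene in every liver library by group (vertical axes differ between genes). Open points are the library left out of the fits and the dashed line marks 3 reads. Fhl1 reaches 64 reads and is higher in Cort NPD than in Veh NPD, Syn2 reaches 14 reads, and Prrg3 and Kcnj15 stay at or below 11.

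Across all 16 eWAT libraries the genes with the most similar levels, by Pearson's r of log2 CPM, were Lox, Aldh1a1 and Prdx6 for Prrg3 (0.99, 0.99 and 0.97), and Dmpk, Lox and Prrg3 for Fhl1 (each 0.97). For Syn2 they were Adcyap1r1, Tacc1 and Stim1 (0.95, 0.95 and 0.93), and for Kcnj15 Ncan, Mal2 and Ctsd (each 0.92). Lox encodes an enzyme that cross-links collagen, Aldh1a1 an enzyme that makes retinoic acid, Prdx6 a peroxiredoxin, Dmpk a muscle kinase, Adcyap1r1 the receptor of the neuropeptide PACAP, Stim1 the calcium sensor of the endoplasmic reticulum, Ncan a proteoglycan of neural matrix, and Ctsd cathepsin D of lysosomes. Among the members themselves r ran from 0.67 for Syn2 and Kcnj15 to 0.97 for Prrg3 and Fhl1. These values are set by the group differences that chose the members, and the libraries share their groups.

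Once each group's mean was removed, the members had no correlation that passed the test. Over the 6 pairs and 16 libraries, Pearson's r ran from −0.31 for Syn2 and Kcnj15 to 0.27 for Prrg3 and Kcnj15, with an adjusted p of 0.52 for every pair (two-sided exact permutation test over 331776 orders). Without Veh HPD replicate 3 the r of Syn2 and Kcnj15 was 0.07. Spearman's rho ran from −0.10 to 0.32, with adjusted p of 0.75 by the same exact permutation test. Without the 2 libraries farthest from the median on the first gene, r ran from −0.14 to 0.48.

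Known glucocorticoid targets and the receptor were read from fixed lists. Of 14 target genes, 4 were called higher with cort on the NPD: Fkbp5, a chaperone of the receptor, by 1.74 (SE 0.39, adjusted p = 0.016), the cell cycle inhibitor Cdkn1a by 1.05 (SE 0.28, adjusted p = 0.032), and the metallothioneins Mt1 and Mt2 by 2.34 (SE 0.33, adjusted p = 6.1e-04) and 2.49 (SE 0.43, adjusted p = 0.0031). On the HPD 3 were called higher (Mt1, Mt2 and Lcn2) and 2 lower (Zbtb16 and Sgk1). The median log2 change of the list was 0.26 on the NPD and 0.23 on the HPD. The receptor gene Nr3c1 was not called on either diet alone, at 132 ± 16.7 CPM (SD, n = 4) in Veh NPD and 108 ± 8.37 in Cort NPD, with a log2 change of −0.29 (SE 0.13, adjusted p = 0.19) and no overlap of those groups. For the mean of the cort effects on both diets it fell by 0.28 (SE 0.09, adjusted p = 0.035). Hsd11b1, whose enzyme regenerates active glucocorticoid inside cells, rose by 1.57 (SE 0.33, adjusted p = 0.010) on the NPD and by 1.39 (SE 0.33, adjusted p = 0.025) on the HPD. Markers of fat progenitors moved with cort as well, with a sum over 5 genes of 2606 to 3407 CPM in Veh and 1724 to 2425 CPM in Cort libraries, while the adipocyte sum was 27084 to 34415 and 26806 to 34874 CPM, and the part of these shifts in the members' levels was not tested.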

How the data were processed

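Whole eWAT and liver RNA was sequenced by the study with a Lexogen QuantSeq 3′ kit in 32 libraries. The deposited table holds raw counts that the authors made for each Ensembl gene in each library and did not normalize. The submitters' processing notes name GRCm38 (mm10), R 4.0.3 and limma. The aligner, the counter, its strand setting and the handling of duplicate reads are not given in the sources used here. Groups were taken from the sample labels. The labels number the libraries of a group but do not name the animals, so p-values measure the spread between these libraries. The members and gene lists were chosen with earlier results of these data known.

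Low counts were removed with filterByExpr (at least 10 in a library and 15 in all, as that function scales them), which left 15187 genes in eWAT, 12391 in liver and 16482 in both. Of the 47643 gene IDs, 47224 had a symbol in the annotation. Counts were scaled by TMM (factors of 0.928 to 1.06 in eWAT and 0.754 to 1.11 in liver) and fitted with edgeR 4.0.16 in R 4.3.3 (robust glmQLFit, glmQLFTest), with 1 mean per group, without replicate 4 of Veh HPD in liver, and all groups of a tissue sharing the spread. P-values were adjusted by Benjamini-Hochberg over all genes of the fit, and adjusted p under 0.05 was called. Correlations used log2 CPM with a prior count of 2. Alternatives were RLE factors, library totals, no filter, DESeq2 1.42.0, limma 3.58.1 (voom), only the groups compared, a replicate block, all 16 liver libraries and leaving out each library. Over 48 pairs of libraries of the same group, none held identical values and the mean chi-squared per gene was 14.1 to 189, above sampling noise. Replicate numbers did not pair libraries of different groups within a tissue. Whether eWAT and liver libraries came from the same mice is not given by the labels and was not examined. The genes named are the members, the lists of their families and pathways, the 10 genes with the smallest p for the mean cort effect and the 3 genes most like each member. The fits and the permutation test were tested on simulated data. Promoter sequences came from RefSeq (GRCm38.p6), which held all 4 members, and positions from GENCODE.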

Additional observations from a re-analysis of the deposited data

Results flagged for a closer look

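Of 28 groups of 4 libraries examined for the members, 5 held a library far from the other 3. Chance flags about 1 in 20 groups of normally distributed values, a rate that does not hold for liver groups with few reads. In eWAT this was Kcnj15 in Veh HPD replicate 3, at 59.2 CPM where the others had 32.8 to 36.4. The other 4 were liver groups with few reads: Prrg3 in Veh NPD replicate 3 (0.0866 CPM, 1 read), Syn2 in the same library (0.173 CPM, 2 reads), Kcnj15 in Veh NPD replicate 2 (0.637 CPM, 6 reads) and Kcnj15 in Cort HPD replicate 4 (0.445 CPM, 6 reads). The cort effect on Syn2 in eWAT differed between the diets by the test of the difference itself, with a log2 difference of −1.28 and an adjusted p of 0.033 from edgeR. That test used the libraries by which the members were chosen.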

How the results depend on the processing

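Of the values recomputed under settings other than leaving out a library, 258 kept their direction and their side of the threshold, 6 lost a call, 4 gained one, 4 changed sign and 23 moved by more than the limit set for a value with no test or a count. Leaving out 1 library, 714 kept them, 24 lost a call, 3 gained one, 7 changed sign and 53 moved. The differences with cort in eWAT kept their direction for all 4 members under every alternative run. Where a call or a count moved, the cause was not tested. The difference of the Syn2 cort effects between the diets was −1.28 with limma voom (adjusted p = 0.12), −1.23 with library totals (adjusted p = 0.091) and −1.37 to −1.15 leaving out 1 library. The Syn2 difference between diets in Cort mice was −0.64 with library totals (adjusted p = 0.066) and −0.76 to −0.64 leaving out 1 library. The Kcnj15 difference between diets in Veh mice passed the threshold without the filter (−0.83, adjusted p = 0.018), with DESeq2 (−0.84, adjusted p = 0.0023) and with limma voom (−0.87, adjusted p = 0.045), and was −1.07 to −0.74 leaving out 1 library. The liver change of Fhl1 on the NPD was 1.03 with all 16 liver libraries (adjusted p = 0.057) and 0.89 to 1.35 leaving out 1 library.

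With the replicate number as a block (replicate block), Kcnj15 between diets in Veh mice was −0.85 (adjusted p = 0.036), Syn2 between diets in Cort mice −0.70 (adjusted p = 0.050), Fhl1 in liver on the NPD 1.03 (adjusted p = 0.057) and the count for the difference of the cort effects in eWAT 9. The correlations of Prrg3 and of Fhl1 with Kcnj15 turned to −0.06 and −0.04. Same-numbered libraries did not deviate together (r of −0.12 to 0.25 in eWAT, over 0.1 in 1 of 24 pairs, and −0.13 to 0.16 in liver, in 3 of 21), so the numbers were not taken as pairs, and the block changed no other call of a member.

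Some values changed sign. Prrg3 between diets in Cort mice was 0.04 with library totals and −0.14 to 0.07 leaving out 1 library, positive without Cort NPD replicate 2 (0.05), Cort HPD replicate 2 (0.07) or Cort HPD replicate 4 (0.01). Fhl1 in liver on the HPD was −0.12 with library totals and −0.15 (without Cort HPD replicate 1) to 0.32 leaving out 1 library, the difference of the Fhl1 cort effects in eWAT was −0.18 to 0.01 (without Cort HPD replicate 4), and the correlations of Fhl1 and of Syn2 with Kcnj15 were −0.02 to 0.37 and −0.42 to 0.07, with −0.02 and 0.07 both without Veh HPD replicate 3.

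Counts of genes called moved more than the values of the members. For the difference of the cort effects in eWAT, 2 genes, the counts were 0 with library totals, 4 without the filter, 14 with DESeq2, 0 with limma voom and 0 to 6 leaving out 1 library, and 784 genes had an unadjusted p under 0.05. For the diets in Veh eWAT, 9 genes, they were 16, 30, 126 and 24 in that order, 4 with only the 2 groups, and 5 (without Veh NPD replicate 4) to 64 (without Veh HPD replicate 3). For the diets in Cort eWAT, 74 genes, they were 195 with DESeq2, 165 with only the 2 groups, and 26 (without Cort NPD replicate 1) to 124 (without Veh HPD replicate 4). For cort on the HPD in eWAT the range leaving out 1 library was 581, without Veh HPD replicate 1, to 1265. In liver, all 16 libraries gave 998 genes for cort on the NPD, 1 for the difference of the cort effects, 7 for the diets in Veh mice and 371 for the diets in Cort mice. The liver difference of the cort effects was called for 9 genes with RLE factors, 23 with library totals, 72 without the filter, 130 with DESeq2, 3 with limma voom and 2 to 39 leaving out 1 library, and the diets in Veh liver for 56 without the filter, 113 with DESeq2 and 5 to 40. In liver the ranges were 714, without Veh HPD replicate 1, to 1222 for cort on the HPD, and 356, without Cort NPD replicate 3, to 757 for the diets in Cort mice.

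Depth limits the liver values of Prrg3, Syn2 and Kcnj15, which rest on 0 to 14 reads a library. The eWAT values of Syn2 rest on 148 to 802 reads a library and those of the other members on at least 505.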
